A study of Mus musculus with 4 samples.

Results

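The nuclear genes for the subunits of oxidative phosphorylation were examined in B16F10 cells, a mouse melanoma line of C57BL/6 origin, in which Lmna had been knocked down. Members were chosen by gene symbol alone: Nduf genes of the a, b, c, s and v series, Sdha to Sdhd, genes beginning with Uqcr, Cyc1, the Cox4 to Cox8 genes and genes beginning with Atp5. The rule took 85 of the 24421 genes in the count matrix, of which 35 belong to complex I, 4 to complex II, 9 to complex III, 20 to complex IV and 15 to complex V. The other 2, Atp5s and Atp5sl, carry the name but are not subunits, and they are counted among the members and in no complex.

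Cells of both groups had been transduced with lentivirus, selected with puromycin, expanded, and grown in DMEM with fetal bovine serum. The 2 shControl libraries came from cells with the control vector, which the study's reagent list gives as empty, so effects of expressing any hairpin are not separated from those of this one. The 2 shLmna libraries came from cells with a short hairpin RNA against exon 8 of Lmna, which encodes lamins A and C of the nuclear lamina. RNA was profiled by bulk MARS-seq, which counts the 3′ ends of polyadenylated transcripts. It is not stated if replicate libraries were made from separate transductions or cultures, so the p-values measure only the spread between these libraries, which may be technical. In bulk RNA, fewer cells that express a gene and less RNA per cell cannot be told apart.

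Oxidative phosphorylation takes place in the inner mitochondrial membrane. Complexes I and II pass electrons from NADH and succinate to ubiquinone, complex III passes them on to cytochrome c, and complex IV to oxygen. Complexes I, III and IV pump protons as they do so, and complex V, the ATP synthase, lets protons flow back to make ATP. Most subunits are encoded in the nucleus and imported, and a small set is encoded in mitochondrial DNA. Subunits are assembled in fixed proportions, and nuclear respiratory factors such as NRF1 and GABPA are known regulators of many of these genes.

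Library totals lay between 2494880 and 3808843 counts. Lmna was at 875 and 719 CPM (counts scaled to a common library total with the TMM method of edgeR) in shControl and at 131 and 131 in shLmna, a log2 fold change of -2.61 ± 0.14 (SE; adjusted p = 7.93e-06, edgeR quasi-likelihood test). Markers of melanocytes, summed over 7 genes, were abundant in every library. Per raw library total, the sum was 19728 to 20673 CPM in shControl and 21440 to 24690 CPM in shLmna. Tyr, on the same list, had only 1 to 7 counts a library and was not tested. Within that list Mlana and Pmel were higher in shLmna and Sox10 was lower, with log2 fold changes of 0.51, 0.41 and -0.89. Markers of other cell types were low on the same scale: the sum over 6 fibroblast genes was 7.05 to 7.35 CPM in shControl and 2.41 to 4.92 CPM in shLmna, that over 4 epithelial genes 2.89 to 5.82 and 0.401 to 1.64, and that over 4 endothelial genes at most 1.31. Of 5 leukocyte markers, 4 were at 0 in all libraries, and Cd68, which is not restricted to leukocytes, was at 14.2 to 16.2 CPM in shControl and 10.8 to 12.0 CPM in shLmna (adjusted p = 0.284, edgeR). The part of other cells in the results was not tested.

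Transcripts of the nuclear-encoded members, as a sum, took a slightly larger share of the counts after knockdown. The 85 members together were 4.70% and 4.81% of all counts in shControl and 5.03% and 5.01% in shLmna, so both shLmna libraries lay above both shControl libraries, with a ratio of 1.06 between the group means. On the TMM scale the ratio was 1.03, with sums of 47495 and 49066 CPM in shControl and 49654 and 49887 CPM in shLmna. Of the 76 members with enough counts to be tested, 66 (86.8%) differed by less than 0.5 on the log2 scale, against 71.8% of the 9150 genes tested. The middle value of their log2 fold changes was 0.10 (quartiles -0.07 and 0.25), and that of all tested genes was -0.0011 (quartiles -0.30 and 0.27).

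Single subunits moved in both directions. At an adjusted p under 0.05 (edgeR quasi-likelihood test with Benjamini-Hochberg adjustment over all tested genes), 13 of the 76 members (17.1%) were called, 7 higher and 6 lower in shLmna. The background was 15.2% of all tested genes, 5.48% higher and 9.74% lower, so the share called among the members was near that of all genes. Correcting for GC content turned the split over all genes from 501 higher and 891 lower calls into 866 and 729, and that of the members into 9 higher and 5 lower. The stricter limits of the study, a fold change above 2 and a mean normalized count above 5 besides the same adjusted p, were passed by 7.64% of all tested genes, 1.76% higher and 5.88% lower, and by 1 member, Uqcrb, which was higher. The groups did not overlap in 51 of the 76 members (67.1%), with 35 above and 16 below, against a background of 60.1% of all tested genes, with 29.5% above and 30.6% below. The calls depended on both shLmna libraries: 3 higher and 1 lower calls were left without shLmna 1, and 1 higher and 1 lower without shLmna 2, while calls over all genes fell to 119 higher and 436 lower, and to 89 and 414.

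**Figure D1:**
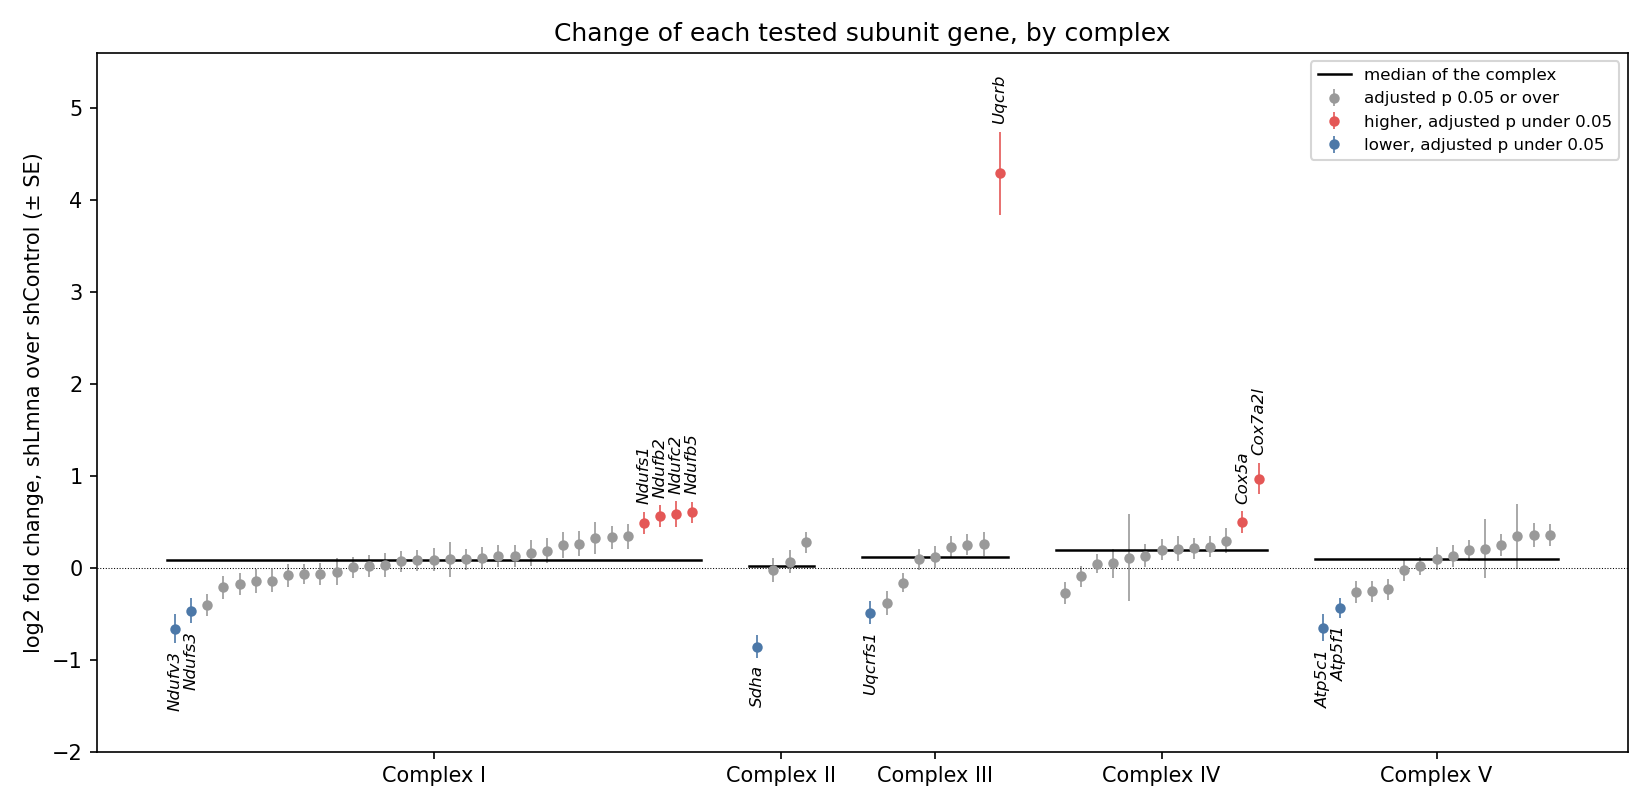
Log2 fold change of each tested subunit gene, shLmna over shControl, with its standard error from edgeR, ordered by size within each complex. Points in colour had an adjusted p under 0.05 and are named, and black lines are the median of each complex. Apart from Uqcrb at 4.29, all points lie between -0.86 and 0.97.

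Sequences before the start of 4 called genes are shown because they include each kind of match found among the called members and 1 gene without a match. They are the 250 bases before a transcript start given by RefSeq on GRCm38.p6, written 5′ to 3′ on the strand of the gene, and capitals mark matches to a motif on either strand. The motifs searched were the NRF1 core GCGCANGCG, the ETS core CCGGAAG recognised by GABPA, and the YY1 core AAGATGG. None of these motifs contains another. The Cox7a2l start is an internal one, inside the longer gene span of the GENCODE annotation, and the other 3 windows overlap the edge of that span.
Sdha, chr13:74350241-74350490, minus strand: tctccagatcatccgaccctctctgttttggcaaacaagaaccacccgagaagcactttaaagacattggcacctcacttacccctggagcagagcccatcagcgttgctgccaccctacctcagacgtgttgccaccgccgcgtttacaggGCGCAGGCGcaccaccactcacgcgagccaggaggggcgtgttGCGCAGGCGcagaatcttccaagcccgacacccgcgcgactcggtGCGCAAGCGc
Atp5c1, chr2:10080433-10080682, minus strand: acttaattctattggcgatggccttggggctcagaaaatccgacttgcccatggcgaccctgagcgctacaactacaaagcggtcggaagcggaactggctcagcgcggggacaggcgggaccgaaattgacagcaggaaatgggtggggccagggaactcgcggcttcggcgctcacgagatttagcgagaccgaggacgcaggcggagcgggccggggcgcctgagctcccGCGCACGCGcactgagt
Ndufs3, chr2:90904722-90904971, minus strand: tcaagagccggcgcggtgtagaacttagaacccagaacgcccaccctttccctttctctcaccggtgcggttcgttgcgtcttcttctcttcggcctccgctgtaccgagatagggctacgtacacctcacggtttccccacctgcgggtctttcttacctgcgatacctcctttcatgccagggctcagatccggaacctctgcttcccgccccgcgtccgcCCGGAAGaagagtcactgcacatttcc
Cox7a2l, chr17:83514334-83514583, minus strand: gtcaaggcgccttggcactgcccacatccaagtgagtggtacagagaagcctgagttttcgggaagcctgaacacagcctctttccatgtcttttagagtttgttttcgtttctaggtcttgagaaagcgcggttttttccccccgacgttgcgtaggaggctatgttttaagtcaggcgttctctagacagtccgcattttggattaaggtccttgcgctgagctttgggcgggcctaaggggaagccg

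The Sdha window held 3 matches to the NRF1 core, that of Atp5c1 1, that of Ndufs3 1 to the ETS core, and that of Cox7a2l none. Sdha, Atp5c1 and Ndufs3 were lower in shLmna, and Cox7a2l was higher. Of the 5 genes called lower that had a promoter entry, 2 held the NRF1 core and 1 the ETS core, and of the 5 called higher that had one, none held any of these letters. Over all members with an entry, 14 of 66 genes held the NRF1 core, or 15 of 71 promoters (21.1%), against 5.16% of the 32851 promoters in the table. The ETS core was found in 12 of 71 (16.9%) against 6.91%, and the YY1 core in 1 of 71 (1.41%) against 4.49%. The promoters compared were not matched for expression or GC content, and no bases after the start were searched. A match is a description of these letters, and its part in any change was not tested.

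Complex I, the NADH dehydrogenase, had 33 tested members with a median log2 fold change of 0.09, of which 4 were higher and 2 lower. The share called was 18.2%, against 15.2% of all tested genes. The summed level of complex I was 14225 and 14832 CPM in shControl and 15010 and 15224 CPM in shLmna. These sums did not overlap between groups, on this scale or as a share of raw library totals. The core subunits, which carry the flavin and the iron-sulfur clusters or form the quinone site, went apart. Ndufs1, the large core subunit that holds iron-sulfur clusters, was at 238 and 216 CPM in shControl and at 311 and 326 in shLmna (log2 fold change 0.49 ± 0.12, adjusted p = 0.0249, edgeR). Ndufs3, another core subunit of the peripheral arm, was at 107 and 125 CPM in shControl and at 84.6 and 83.4 in shLmna (-0.47 ± 0.14, adjusted p = 0.0464, edgeR). Ndufs1 was thus above and Ndufs3 below in both shLmna libraries, and the call of Ndufs3 was held in only 6 of 14 alternative settings. Ndufs7, a core subunit near the quinone site, was at 584 and 558 CPM against 409 and 454 and just missed the threshold (-0.40, adjusted p = 0.0508, edgeR). The other 4 core subunits had log2 fold changes from -0.04 for Ndufv2 to 0.25 for Ndufs8, and the median of the 7 was 0.03.

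The Ndufb subunits, small accessory proteins of the distal part of the membrane arm, lay mostly above control. Of 10 tested, 8 had a positive log2 fold change, and the median was 0.22. The groups did not overlap in 7 (70%), against 60.1% of all tested genes. In both shLmna libraries 7 were above and 0 below, where the background was 29.5% above and 30.6% below. Calls were made for 2 of the 10 (20%), against 15.2% of all tested genes. Ndufb5 was at 357 and 364 CPM in shControl and at 548 and 548 in shLmna (0.60 ± 0.12, adjusted p = 0.00743, edgeR). Ndufb2 was at 477 and 446 CPM in shControl and at 704 and 659 in shLmna (0.56 ± 0.12, adjusted p = 0.0112, edgeR). Both genes had replicates closer to each other than the groups were. Ndufb10, Ndufb3 and Ndufb4 had log2 fold changes of 0.33, 0.34 and 0.33 that did not pass the test (adjusted p = 0.104, 0.113 and 0.238, edgeR). Ndufb9, the most abundant of complex I, was at 1317 and 1199 CPM in shControl and at 1207 and 1189 in shLmna, so its groups overlapped.

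Among the other accessory subunits of complex I, 16 were tested, 1 was higher and 1 lower, and the median was 0.08. The share called was 12.5%, against 15.2% of all tested genes. Ndufc2, a membrane arm subunit, was at 321 and 341 CPM in shControl and at 437 and 553 in shLmna (0.58 ± 0.14, adjusted p = 0.0214, edgeR). Ndufv3, a small subunit of the NADH-oxidising module, was at 579 and 802 CPM in shControl and at 419 and 456 in shLmna (-0.66 ± 0.16, adjusted p = 0.0214, edgeR). The shControl libraries differed more for Ndufv3 than for any of the other called genes of complex I, and both still lay above shLmna. Ndufa5 (0.26), Ndufa3 (-0.21) and Ndufs4 (0.19) were the next furthest from 0, and none of the 3 was called. Ndufs5 was listed at 0 in all libraries and Ndufa11 at 2 to 7 counts, so neither was tested. Of the 31-base stretches in the 3′ ends of these 2 genes, 47.3% and 28.2% also occur in other annotated genes, and the part of that in the low counts was not tested.

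Complex II, the succinate dehydrogenase, has 4 subunits, all nuclear, and 1 of them (25%, against 15.2% of all tested genes) was called, as lower. Sdha, the flavoprotein that oxidises succinate in the TCA cycle, lies on chr13:74322254-74350280 (GRCm38). It was at 219.6 and 201 CPM in shControl and at 121 and 112 in shLmna, a fall of 44.7% (log2 fold change -0.86 ± 0.12, adjusted p = 0.00149, edgeR). Both shLmna libraries were far below both shControl libraries, and the replicates of each group were close. Its partner in the catalytic head, the iron-sulfur protein Sdhb, was at 1772 and 2252 CPM in shControl and at 2157 and 2066 in shLmna (0.07 ± 0.13, adjusted p = 0.761, edgeR). The membrane anchors that hold the ubiquinone site were at 488 and 504 CPM against 619.8 and 587 for Sdhc (0.28, adjusted p = 0.136, edgeR) and at 323 and 332 against 292 and 354 for Sdhd (-0.02, adjusted p = 0.945, edgeR). Within a library, the ratio of Sdha to Sdhc counts was 0.450 and 0.399 in shControl and 0.195 and 0.191 in shLmna, and that of Sdha to Sdhd was 0.680 and 0.606 against 0.413 and 0.317. The summed level of complex II was 2803 and 3290 CPM in shControl and 3189 and 3119 in shLmna, which overlapped. Sdha had no stretch shared with another annotated gene, and its call was lost in 1 of 14 alternatives, without shLmna 2 (adjusted p = 0.0540, edgeR).

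**Figure D2:**
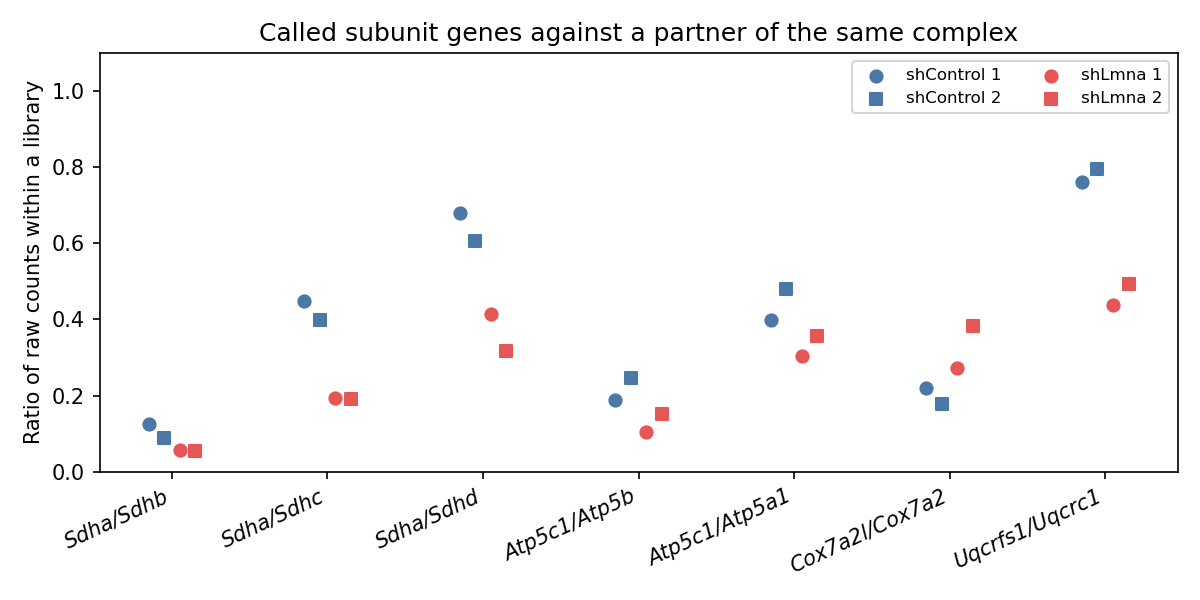
Ratio of raw counts of a called subunit gene to those of a partner from the same complex, within each library. Circles and squares are replicates 1 and 2. The ratios of Sdha, Atp5c1 and Uqcrfs1 are lower and that of Cox7a2l is higher in both shLmna libraries than in both shControl libraries, for every partner drawn.

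Complex III, the cytochrome bc1 complex, had 9 tested members with a median log2 fold change of 0.12, of which 1 was higher and 1 lower. The share called was 22.2%, against 15.2% of all tested genes. Uqcrfs1, the Rieske iron-sulfur protein that takes electrons from ubiquinol, was at 383 and 354 CPM in shControl and at 267 and 259.7 in shLmna (-0.48 ± 0.12, adjusted p = 0.0247, edgeR). Cyc1, the cytochrome c1 that receives them next, was at 821 and 901 CPM against 593 and 729 and did not pass the test (-0.38 ± 0.13, adjusted p = 0.0855, edgeR). These 2 nuclear-encoded catalytic subunits were both below control in both shLmna libraries, as were 30.6% of all tested genes. Over the 9 members the groups did not overlap in 8 (88.9%), with 5 above and 3 below, against 60.1% of all tested genes. The core proteins Uqcrc1 and Uqcrc2, which form the matrix side, had log2 fold changes of 0.26 and 0.12 and were not called. The ratio of Uqcrfs1 to Uqcrc1 counts was 0.761 and 0.796 in shControl and 0.438 and 0.492 in shLmna.

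Uqcrb, a small accessory subunit near the ubiquinone site of complex III, showed the largest change of all members. It lies on chr13:66900617-66905378 (GRCm38) and its counts were 6 and 18 in shControl, against 235 and 163 in shLmna. That is 1.86 and 4.82 CPM against 92.9 and 44.4, or 19.6-fold (log2 fold change 4.29 ± 0.45, adjusted p = 0.000241, edgeR). The groups were far apart, and the replicates within each group also differed from each other by a larger factor than those of the other called members. The call was held in all 14 alternatives, with log2 fold changes from 3.69 without shLmna 1 to 5.15 without shControl 2, and 0.95 in the batch-corrected values. Of the 31-base stretches in its 3′ end, 58.2% also occur in other annotated genes, so reads of Uqcrb could be split with near-identical copies, and the part of that in the change was not tested. The other small subunits moved little: Uqcrh, Uqcr11 and Uqcr10 had log2 fold changes of 0.25, 0.23 and 0.10 and Uqcrq, the most abundant of complex III, -0.16, and none was called.

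Complex IV, the cytochrome c oxidase, had 13 tested members, of which 2 were higher and 0 lower, with a median log2 fold change of 0.20. The share called was 15.4%, near the 15.2% of all tested genes. Of the 13, 11 had a positive log2 fold change. The groups did not overlap in 8 (61.5%), near the 60.1% of all tested genes. Of these 8, 7 were above and 1 was below in both shLmna libraries, where the background was 29.5% above and 30.6% below. The summed level of complex IV was 8014 and 8745 CPM in shControl and 9299 and 9526 CPM in shLmna, a ratio of 1.12 between the means. These sums did not overlap between groups, on this scale or as a share of raw library totals (ratio 1.15). Cox5a, a nuclear-encoded subunit of the matrix side, was at 483 and 499 CPM in shControl and at 656 and 734 in shLmna (0.50 ± 0.12, adjusted p = 0.0204, edgeR). Cox7b, Cox7a2, Cox4i1 and Cox5b were also above in both shLmna libraries, with log2 fold changes of 0.30, 0.23, 0.21 and 0.20, and none passed the test. Cox8a was the member below, at 336 and 329 CPM against 278 and 273 (-0.27 ± 0.12, adjusted p = 0.158, edgeR). Cox6a1, the most abundant, was at 1496 and 1570 CPM against 1524 and 1642, which overlapped.

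Cox7a2l, a relative of Cox7a2 known for joining complexes III and IV into supercomplexes, was the other called gene of complex IV, on chr17:83501918-83517330 (GRCm38). It was at 139 and 121 CPM in shControl and at 209.6 and 298 in shLmna, or 1.96-fold (log2 fold change 0.97 ± 0.17, adjusted p = 0.00495, edgeR). Both shLmna libraries were above both shControl libraries, and shLmna 2 stood well above shLmna 1. The call was lost without shLmna 2 (log2 fold change 0.70, adjusted p = 0.0742, edgeR). The ratio of Cox7a2l to Cox7a2 counts was 0.219 and 0.177 in shControl and 0.272 and 0.383 in shLmna. Isoforms of complex IV that are restricted to other tissues were almost absent: Cox4i2, Cox6b2, Cox8b and Cox8c were at 0 in all libraries, Cox6a2 and Cox7b2 had at most 2 counts in any library, and Cox7a1 had 8 to 14 counts and was not called. Ndufa4l2, an isoform of the accessory subunit Ndufa4, also had at most 2 counts.

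**Figure D3:**
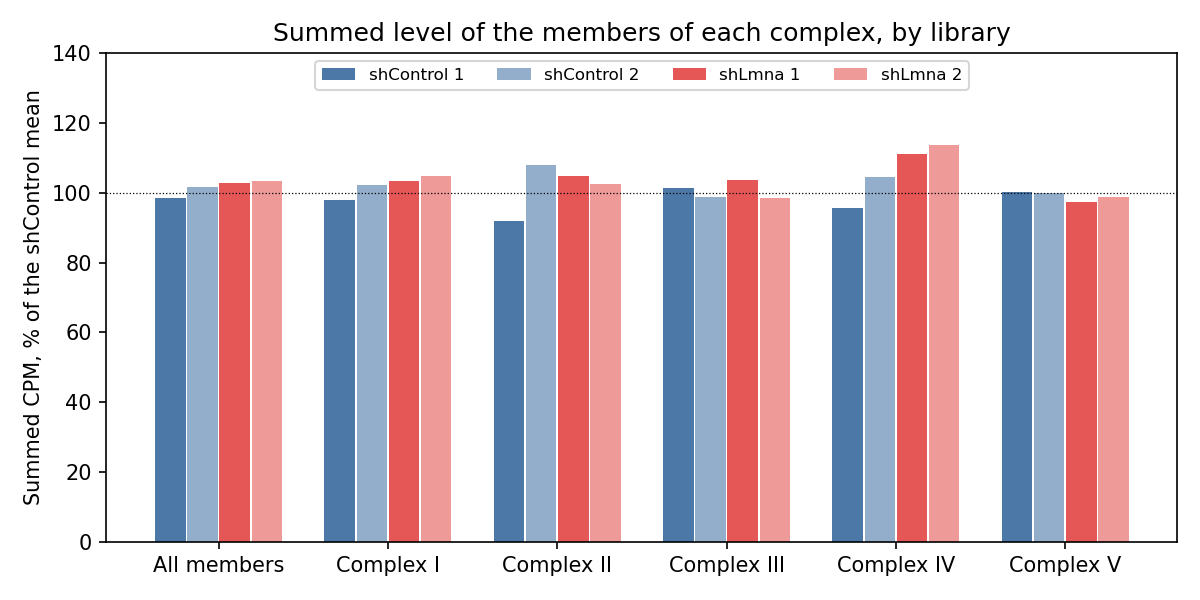
Summed CPM of the members of each complex in each library, as a percentage of the mean of the 2 shControl libraries, with 1 bar per library. Complex I, complex IV and all members together are higher in both shLmna libraries than in both shControl libraries. Their ratios of means are 1.04, 1.12 and 1.03. Complex V is lower on this TMM scale (0.979) but overlaps as a share of raw library totals.

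Complex V, the ATP synthase, had 15 tested members, of which 0 were higher and 2 lower, and their median log2 fold change was 0.10. The share called was 13.3%, near the 15.2% of all tested genes, where 5.48% were higher and 9.74% lower. The summed level of complex V was 15411 and 15340 CPM in shControl and 14947 and 15169 in shLmna, a ratio of 0.979 with no overlap on the TMM scale. As a share of raw library totals it was 1.525% and 1.504% in shControl and 1.515% and 1.522% in shLmna, which overlapped (ratio 1.003), so no direction is given for it. In the F1 head and central stalk, Atp5c1, the gamma subunit that turns inside the head, was at 606 and 631 CPM in shControl and at 336 and 452 in shLmna (-0.65 ± 0.15, adjusted p = 0.0185, edgeR). Both shLmna libraries were lower, shLmna 1 the more so, and without shLmna 1 the call was lost (-0.45, adjusted p = 0.204, edgeR). Atp5b, the catalytic beta subunit, was at 3223 and 2563 CPM against 3244 and 2971, which overlapped (0.10, adjusted p = 0.617, edgeR). Atp5a1, the alpha subunit, and Atp5d, the delta subunit, both had log2 fold changes of -0.26 and were not called. Atp5e, the epsilon subunit, was at 0.25, so the 5 genes of the head and stalk lay from -0.65 to 0.25 with a median of -0.26. The ratio of Atp5c1 to Atp5a1 counts was 0.398 and 0.479 in shControl, against 0.304 and 0.357.

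In the peripheral stalk and the rest of the membrane part of complex V, Atp5f1, the b subunit, was at 980.0 and 1010 CPM in shControl and at 708 and 762 in shLmna (-0.44 ± 0.11, adjusted p = 0.0275, edgeR). The replicates of Atp5f1 were close and the groups did not overlap. Atp5j and Atp5k, small subunits of this part, were above in both shLmna libraries without passing the test (0.36 and 0.36, adjusted p = 0.0692 and 0.0995, edgeR). The c ring, through which protons pass, is encoded by 3 genes for the same mature subunit. Atp5g3 was at 2466 and 2750 CPM against 2595 and 2706, and Atp5g1 at 440.5 and 486 against 445 and 468, so both overlapped, with log2 fold changes of 0.02 and -0.02. Atp5g2 and Atp5l were at 7.76 to 18.3 CPM in all libraries, and 87.7% and 85.4% of the 31-base stretches of their 3′ ends occur in other annotated genes. Atp5s and Atp5sl, which are not subunits, had log2 fold changes of 0.23 and 0.63 and were not called.

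**Figure D4:**
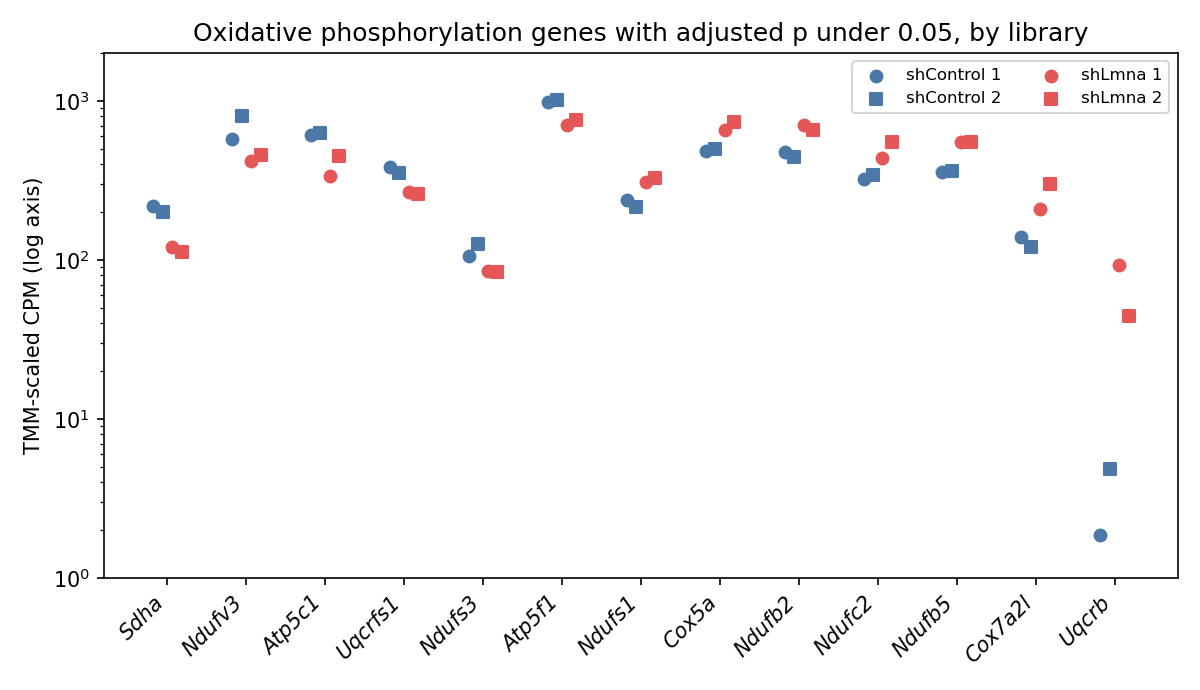
TMM-scaled CPM, on a log axis, of the 13 members with an adjusted p under 0.05 in the 2 shControl and 2 shLmna libraries, ordered by log2 fold change. Circles and squares are replicates 1 and 2. Sdha, Ndufv3, Atp5c1, Uqcrfs1, Ndufs3 and Atp5f1 are lower in both shLmna libraries, and the other 7 genes higher.

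Sequence properties of the counted ends differed between members and other genes. Over the final 1000 transcript bases, median GC content was 50.5% in the tested members and 46.9% in all tested genes, and it was 48.3% in the 7 higher and 43.3% in the 6 lower members. At least 1 stretch of 31 bases shared with another annotated gene was found in 50 of the 76 tested members (65.8%), against 37.2% of all tested genes. Among the called genes that share was over 40% in Uqcrb (58.2%), Ndufs3 (52.9%), Cox5a (47.2%), Atp5f1 (46.9%) and Ndufb2 (45.4%), and it was 0 in Sdha, Ndufc2, Ndufs1, Ndufv3 and Uqcrfs1. The part of shared stretches in these values was not tested.

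Genes that build or control the complexes were counted on lists of their own. None of the 13 subunits encoded in mitochondrial DNA was among the genes of the matrix, so the mitochondrial side was not analysed here. The list of assembly and electron carrier genes, which also holds Ndufab1 and Usmg5, had 45 tested genes. Of these, 3 were higher and 0 lower, a share of 6.67% against 15.2% of all tested genes. The median log2 fold change was 0.14. The 3 were Timmdc1, a complex I assembly factor (1.13 ± 0.26, adjusted p = 0.0168, edgeR), Cmc1, a complex IV assembly factor (0.996 ± 0.18, adjusted p = 0.00497, edgeR), and Ndufaf2, a complex I assembly factor (0.51 ± 0.15, adjusted p = 0.0414, edgeR). With DESeq2 the calls of Timmdc1 and Ndufaf2 were lost (adjusted p = 0.188 and 0.165), and that of Ndufaf2 was held in 9 of 14 alternatives. Sdhaf1, an assembly factor for complex II, was at -0.52 and did not pass (adjusted p = 0.0881, edgeR). In the pyruvate dehydrogenase complex and the TCA cycle, which supply NADH and succinate, 17 genes were tested with a median of 0.02. Dlst, of the oxoglutarate dehydrogenase complex, was higher (0.43, adjusted p = 0.0361, edgeR).

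Of 14 tested regulators of mitochondrial genes, 2 were higher and 2 lower, a share of 28.6% against 15.2% of all tested genes. Yy1, a transcription factor with known targets among respiratory genes, was at 182 and 307 counts in shControl, against 8 and 14 (log2 fold change -4.28 ± 0.29, adjusted p = 2.01e-05, edgeR), and it was called in all 14 alternatives. Hif1a, the oxygen-sensitive factor that promotes glycolysis, had 219 and 273 counts against 66 and 106 (-1.35 ± 0.16, adjusted p = 0.000514, edgeR), but with the GC correction its log2 fold change was -0.19 (adjusted p = 0.527, edgeR). Tfb2m, a mitochondrial transcription factor with 14 to 33 counts a library, and Pprc1, a coactivator of the PGC-1 family, were higher (1.25 and 0.70, adjusted p = 0.0422 and 0.0274, edgeR), and both calls were lost with DESeq2. Nrf1, Gabpa, Esrra, Tfam and Ppargc1b had log2 fold changes of 0.20, 0.50, -0.22, -0.11 and -0.02, and none was called. Ppargc1a, the coactivator best known for mitochondrial biogenesis, had 1 to 7 counts a library and was not tested.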

How the data were processed

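Bulk MARS-seq libraries of B16F10 cells, 2 shControl and 2 shLmna, were grouped by their titles. Per the study's methods, the authors trimmed reads with Cutadapt, aligned them to mm10 with STAR 2.4.2a and counted the last 1000 bases of RefSeq genes with HTSeq in the UTAP pipeline. They deposited raw counts per gene, which were used for all main results. The methods describe counting of unique molecular identifiers once duplicates had been marked, and it is not stated if this matrix is that output. A deposited signal table of counts divided by size factors also held the authors' p-values and adjusted p-values for this comparison, which were not used. Its values were whole multiples of 1 step in 100% of cases (tolerance 0.02), and the recovered counts served as an alternative. Over the genes in both, matrix counts were 1.078 (shControl 1) to 1.089 (shLmna 2) times the recovered counts. The matrix is thus not the count set behind that signal table. The authors' deposited log2 values had been corrected with ComBat for batches that are not named.

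Counts were tested with edgeR 4.0.16 (R 4.3.3): filterByExpr, TMM, quasi-likelihood test of shLmna against shControl, Benjamini-Hochberg adjustment over 9150 genes. The biological coefficient of variation was 0.126. Replicates differed by more than sampling noise (chi-square over its degrees of freedom 6.96 in shControl and 3.91 in shLmna), and they were kept as separate samples. Named genes are all called members, and in each complex the extremes and the most abundant member, besides genes named to complete a group, which were chosen after their values were seen. The members and lists were chosen with earlier results of these data known. Alternatives used DESeq2 1.42.0, limma 3.58.1, other scalings and filters, a GC correction, a replicate block and leaving out each library. GC content and shared stretches came from GENCODE transcripts (GRCm38), matched for 85 of 85 members, and promoters from RefSeq, matched for 66. Library totals were 2494880 to 3808843 counts. The result of 1 gene on the lists of other pathway genes is not reported here.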

Additional observations from a re-analysis of the deposited data

How the results depend on the processing

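The counts of 7 higher and 6 lower members stayed within 1.5 times under the other scalings, without the filter, with DESeq2, with the recovered counts and with the GC correction. They were 21 higher and 13 lower with limma on the batch-corrected values, 15 higher with the replicate block and GC correction together, and from 1 to 11 higher and from 1 to 8 lower when 1 library was left out. The 1 member past the study limits became 2 with upper quartile scaling or library totals, 0 with limma, and 1 to 2 with 1 library left out. Replicates with the same number did not deviate together over all tested genes (correlation 0.0123). That single value cannot exclude a shared batch that acts on some genes. The replicate block gave 11 higher and 8 lower members, and 852 higher and 1220 lower genes in all. The median of complex I (0.09) was 0.132 with the GC correction and 0.1325 with block and GC correction. Over all tested genes these settings moved the median from -0.0011 to 0.052 and 0.0545. With 1 library left out, the median of complex I was 0.0428 to 0.1287. The same ranges were -0.0633 to 0.1242 for complex II, 0.1284 to 0.2178 for complex III, 0.0708 (without shControl 1) to 0.2803 for complex IV, 0.0064 (without shLmna 2) to 0.1457 for complex V and 0.0533 to 0.1335 for all members. As shares of raw library totals, an alternative chosen after seeing the data, the ratio of the summed level was 1.0554 for all members (1.0309 with TMM) and 1.0026 for complex V (0.9793). Direction was followed over the alternatives for the called members and, in each complex, the extremes and most abundant member, not for the other members. Among those followed it turned for 3, all uncalled and near 0. Ndufb9 went to 3e-04 with the GC correction, 0.0024 with block and GC correction and 0.0015 without shControl 1. Sdhb went to -0.0906 without shControl 1, and Atp5b to -0.0558 without shControl 2. With 1 library left out, Ndufb9 ran from -0.1398 to 0.0015, Sdhb from -0.0906 to 0.2497 and Atp5b from -0.0558 to 0.2802. No called member changed direction in any of the 14 alternatives. The cause of these changes was not tested. With 2 libraries a group, smaller differences than those called cannot be told from the spread between libraries.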
